A study of Mus musculus with 16 samples.

Results

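Gene expression was compared between 4 libraries of the mouse lower first molar labelled with embryonic days ED14.5, ED15.0, ED15.5 and ED16.0 and 4 libraries of the upper first molar labelled ED16.5, ED17.0, ED17.5 and ED18.0. These 8 of the series' 16 libraries were chosen by their labels alone. They lie next to each other in the order of the libraries' letter codes, as the last 4 of the upper and the first 4 of the lower series. They are called the early lower and the late upper libraries here. Every library holds poly(A) RNA from a left and a right first molar germ, dissected from a single wild-type (WT) embryo of the outbred CD1 strain that the labels give as male. Per the labels each stage has its own individual, numbered 1 to 4 on the early lower side and 5 to 8 on the late upper side, so no individual lies on both sides. The labels name no treatment. The sides differ in labelled tooth, in labelled stage and in the flow cell of the sequencing run (lane 2 in both), and these cannot be told apart.

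A tooth germ is an epithelium that folds over a condensed neural crest mesenchyme, inside a follicle that later forms the periodontal tissues. Cusps are placed by enamel knots, clusters of non-dividing epithelial cells that send out Shh, Fgf, Bmp and Wnt signals while the cells around them divide. The jaw a germ belongs to is set earlier, by transcription factors such as the Dlx genes of the mandibular arch and Pou3f3 of the maxillary arch. Upper and lower molars are known for different cusp patterns, and germs of the same day need not stand at the same step of development.

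Markers of epithelium and of molar mesenchyme were present on both sides. Cdh1, the cadherin of epithelia, was at 213 ± 17.3 CPM (counts scaled to library size and composition, SD, n = 4) in the early lower and 201 ± 31.1 in the late upper libraries. Barx1, a molar mesenchyme gene, was at 339 ± 78.7 and 295 ± 44.1 CPM. Neither passed edgeR's quasi-likelihood F test (adjusted p = 0.225 and 0.123, Benjamini-Hochberg). Each is 1 marker from a list of 12, of which other members passed. In the mesenchyme list 5 genes were higher in the late upper and 2 in the early lower libraries, and in the epithelium list 2 on each side. The 2 markers therefore do not show equal tissue content. Gene counts ran from 33146758 to 44565205 per library, and 18006 to 18362 genes had at least 1 count.

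Some genes went against the labels, and they stand before the results because the grouping rests on these labels. Pou3f3, the maxillary gene, was at 6.47, 112, 10.1 and 109 CPM in the late upper libraries in stage order and at 4.85, 86.2, 5.11 and 70.0 CPM in the early lower ones. Its level followed whether the labelled stage is a mid-day or a full-day one and not the tooth label. Nkx2-3, a homeobox gene, ran the other way, at 46.8, 0.0561, 39.2 and 0.0901 CPM in the late upper and 31.3, 0.112, 31.1 and 0.0722 CPM in the early lower libraries. For that reason the mid-day stages (ED14.5, ED15.5, ED16.5 and ED17.5) and the full-day stages (ED15.0, ED16.0, ED17.0 and ED18.0) are fitted as alternating groups.

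The individuals also did not sort by stage alone. Slc7a11, a cystine transporter, was at 3.17, 2.86, 18.8 and 17.9 CPM in the late upper libraries and at 2.48, 2.09, 18.4 and 15.8 CPM in the early lower ones, so that neighbouring stages shared a level although the labels give each its own individual. Xist, the RNA of the inactive X chromosome, was read in all 8 libraries (16079 to 79324 counts), while 3 genes of the Y chromosome, Uty, Kdm5d and Eif2s3y, were at 0 in all 8 and Ddx3y had 2 counts in 1. Xist was at 428.7 and 542.6 CPM in the lower libraries of stages ED14.5 and ED15.0 and at 1723 to 1910 CPM in the other 6. Whether neighbouring stages are separate animals was not tested beyond these levels. Where they are not, the p-values below are too small.

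Of 15945 genes tested, 2772 (17.4%) differed between the sides at an adjusted p under 0.05. In the early lower libraries 1419 genes (8.90%) were higher and in the late upper libraries 1353 (8.49%), and the median log2 difference over all genes was 0.00. Differences over 2-fold were held by 201 of the former (1.26%) and 140 of the latter (0.878%). The 4 libraries of a side lay wholly above the 4 of the other in 2925 genes (18.3%). In the principal components of the 500 most variable genes, the sides separated on the first component (41.5% of variance) and the alternating groups on the second (21.6%).

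**Figure D1:**
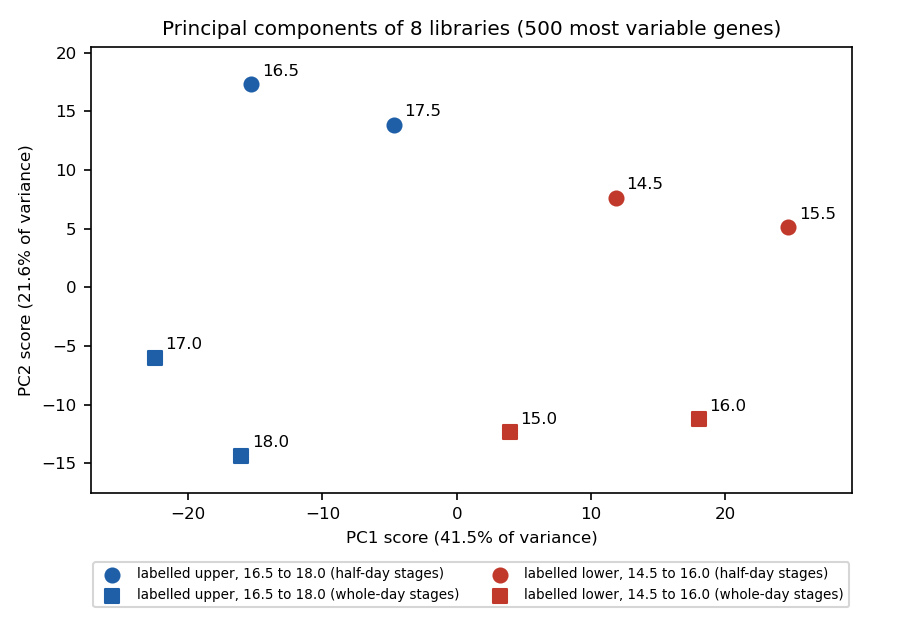
Scores of the 8 libraries on the leading 2 principal components, computed from log2 CPM of the 500 most variable genes, with the labelled stage beside each point, colour for the side and shape for the alternating group. The late upper libraries lie between -22.5 and -4.69 on PC1 and the early lower ones between 3.96 and 24.7, and PC2 runs from 5.13 to 17.3 in the mid-day stages and from -14.3 to -6.01 in the full-day stages.

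The counts moved with the libraries and terms in the fit. Left out one at a time, the upper libraries of stages ED16.5 and ED17.0 and the lower ones of ED15.0, ED15.5 and ED16.0 brought the genes higher in the early lower libraries to 500, 502, 877, 686 and 536, and those higher in the late upper ones to 429, 447, 798, 634 and 546. Without the term for the alternating groups 654 and 621 were called. Summing neighbouring stages to 2 samples a side left 0 and 0 with edgeR (3502 genes at an unadjusted p under 0.05) and 737 and 680 with DESeq2. All 2772 genes kept their sign in the edgeR sums. These sums hold the same libraries that picked the genes, so the kept sign is no separate check. The rule for naming genes gave 171 genes that passed the test. Of these 104 passed it with any 1 library left out. All 171 kept their sign, which is no separate check either, since those fits share most of their libraries. Without the term for the alternating groups 61 of the 171 lost their call. For most single genes below, only calls lost with a library left out are given, so these are not the only losses.

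The largest differences towards the early lower libraries were in genes that were low on the other side. Plac8 (chromosome 5, 100553725 to 100572245, build GRCm38) was at 10.1, 5.50, 34.9 and 14.3 CPM in the early lower libraries and at 0.731, 0.393, 1.32 and 0.571 CPM in the late upper ones. Its lowest early lower library stood above its highest late upper library (log2 difference 4.42 ± 0.52 SE, adjusted p = 0.00390, edgeR's quasi-likelihood test). Kcne1, a potassium channel subunit (chromosome 16, 92345982 to 92359468), was at 3.68, 3.86, 3.36 and 6.09 CPM against 0.162, 0.196, 0.586 and 0.661 CPM. These groups did not overlap either (log2 difference 3.40 ± 0.39, adjusted p = 0.00390).

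Tbx22, a T-box gene required for the palate (chromosome X, 107667964 to 107688978), was at 7.81, 5.55, 8.34 and 13.3 CPM in the early lower libraries and at 0.460, 0.281, 2.67 and 1.56 CPM in the late upper ones. The groups stood apart, with a log2 difference of 2.84 ± 0.58 (adjusted p = 0.0163). It is the one member of the maxillary and palate list that was higher in the libraries labelled lower. Pappa, a protease that frees insulin-like growth factors from their binding proteins (chromosome 4, 65124174 to 65357509), was at 27.5, 18.3, 31.0 and 40.6 CPM against 4.01, 1.63, 8.24 and 6.79 CPM, which is 2.53 ± 0.42 on the log2 scale (adjusted p = 0.00915). Hapln1, the link protein of hyaluronan matrix (chromosome 13, 89539796 to 89611652), was at 35.8, 29.2, 60.2 and 54.1 CPM against 9.64, 7.07, 14.6 and 10.1 CPM. Its difference was 2.13 ± 0.26 (adjusted p = 0.00417). Within the sides its level also rose with the labelled stage, by a slope shared by both sides (log2 0.71 ± 0.08 per day, adjusted p = 0.00683). The slope was fitted with the term for the alternating groups. Differences of a like size were in Crnn, cornulin of stratified epithelium (2.92), Ccl19, a chemokine (2.64), Rxrg, a retinoid X receptor (2.46), and Ecel1 (2.27), each with all calls kept when 1 library was left out. Spp1 (osteopontin, 2.24 ± 0.65, adjusted p = 0.0461) lost its call, up to an adjusted p of 0.141, without the upper library of stage ED16.5, ED17.0 or ED18.0 or the lower one of ED15.0, ED15.5 or ED16.0.

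Other genes towards the early lower libraries had smaller and tighter differences. Lmo3, a LIM-domain transcription cofactor (chromosome 6, 138362918 to 138581968), was at 8.32, 6.67, 7.12 and 7.32 CPM against 2.57, 2.30, 3.17 and 2.25 CPM. Its log2 difference of 1.52 ± 0.12 had the smallest adjusted p in this direction among the named genes (0.00192). Slit2, an axon guidance ligand (chromosome 5, 47983138 to 48307733), was at 157, 196, 207 and 232 CPM in the early lower libraries and at 85.8, 106, 95.2 and 108 CPM in the late upper ones. The sides stood apart by 1.004 ± 0.09 (adjusted p = 0.00289). Runx3, a runt-domain transcription factor (0.86 ± 0.09), and Cacna1i, a calcium channel (1.86 ± 0.20), were called at an adjusted p of 0.00382 each.

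The largest differences towards the late upper libraries included embryonic globins. Hbb-y, an embryonic beta-like globin (chromosome 7, 103851749 to 103853216), was at 15.51, 14.6, 3.02 and 6.22 CPM in the late upper libraries and at 0.773, 0.494, 0.702 and 0.506 CPM in the early lower ones (log2 difference -4.00 ± 0.55, adjusted p = 0.00556). Hba-x, the embryonic zeta globin (chromosome 11, 32276400 to 32278116), was at 5.28, 5.02, 1.85 and 3.27 CPM against 0.747, 0.898, 0.501 and 0.578 CPM (-2.50 ± 0.35, adjusted p = 0.00590). Neither overlapped between the sides, and both were highest at the upper stages ED16.5 and ED17.0. These embryonic globins were thus higher on the side labelled later, but lower at the later stages within that side. A rise with stage cannot be read from the difference between the sides, and whether the stage labels are right was not tested. Alas2, the erythroid heme synthesis enzyme, was at 23.0 ± 2.70 and 23.5 ± 3.02 CPM, and the adult-type Hbb-b1 went the other way, at 1.63, 1.84, 1.28 and 1.06 CPM in the early lower libraries and 1.03, 0.617, 0.645 and 0.601 CPM in the late upper ones. Its difference of 1.01 ± 0.26 (adjusted p = 0.0317) ended, up to an adjusted p of 0.0944, without the upper library of stage ED17.0, ED17.5 or ED18.0 or the lower one of ED14.5 or ED15.0. Near-identical globin genes can share or lose reads, which makes these levels uncertain. In bulk germs, fewer cells of a type and less RNA per cell cannot be told apart.

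Best1, a chloride channel of the retinal pigment epithelium (chromosome 19, 9985174 to 10001633), was at 5.98, 7.21, 3.11 and 5.98 CPM in the late upper libraries and at 0.240, 0.741, 0.251 and 0.746 CPM in the early lower ones. The sides stood apart by -3.56 ± 0.29 (adjusted p = 0.00206). Vgll3, a cofactor of TEAD transcription factors (chromosome 16, 65815257 to 65866368), was at 14.54, 9.20, 9.498 and 5.98 CPM against 2.96, 1.95, 1.80 and 1.40 CPM (-2.26 ± 0.23, adjusted p = 0.00382). Inside the sides Vgll3 fell with the labelled stage, by a shared slope of 0.61 on the log2 scale per day (adjusted p = 0.0222). Rxfp3, a relaxin receptor (-2.06 ± 0.29), was higher in every late upper library than in any early lower one.

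Ttr, transthyretin, had the largest fitted difference (-7.59 ± 1.97, adjusted p = 0.0328), but only at 2 stages. It was at 0.0812, 0.168, 17.53 and 9.25 CPM in the late upper libraries and at 0, 0, 0.0251 and 0.0963 CPM in the early lower ones. The upper stages ED16.5 and ED17.0 lay near the early lower range, and the call ended, up to an adjusted p of 0.0839, without the upper library of stage ED18.0 or any 1 of the early lower libraries.

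Among the tightest differences towards the late upper libraries were a pair of TRIM genes on chromosome 7. Trim12c (104338754 to 104353362) was at 15.2, 16.1, 13.5 and 16.4 CPM in the late upper and at 4.24, 4.09, 5.04 and 5.37 CPM in the early lower libraries. Its log2 difference was -1.71 ± 0.11 (adjusted p = 0.00183). Trim68 (102677582 to 102687327) was at 15.9, 15.7, 15.6 and 16.2 CPM against 9.20, 8.33, 9.25 and 7.78 CPM (-0.88 ± 0.07, adjusted p = 0.00206). Both sets of 4 were narrow and well apart. Trim12c has close relatives in its gene family, among which reads can be split, so its level is uncertain.

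Lgals7, a galectin of stratified epithelium (chromosome 7, 28863853 to 28866284), was at 74.7, 49.4, 75.7 and 50.6 CPM in the late upper libraries and at 46.0, 27.9, 36.8 and 26.7 CPM in the early lower ones. It alternated with the stage on both sides and still did not overlap (-0.87 ± 0.06, adjusted p = 0.00192). Cadps2, a regulator of vesicle release (chromosome 6, 23262773 to 23839421), was at 29.3, 21.7, 31.5 and 23.7 CPM against 17.49, 12.3, 14.8 and 12.6 CPM. It had the same alternation and a difference of -0.89 ± 0.07 (adjusted p = 0.00192). The adhesion molecule Cadm3 (-0.75 ± 0.06) and the secreted Fibin (-1.09 ± 0.10) were also higher in each late upper library than in any early lower one.

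**Figure D2:**
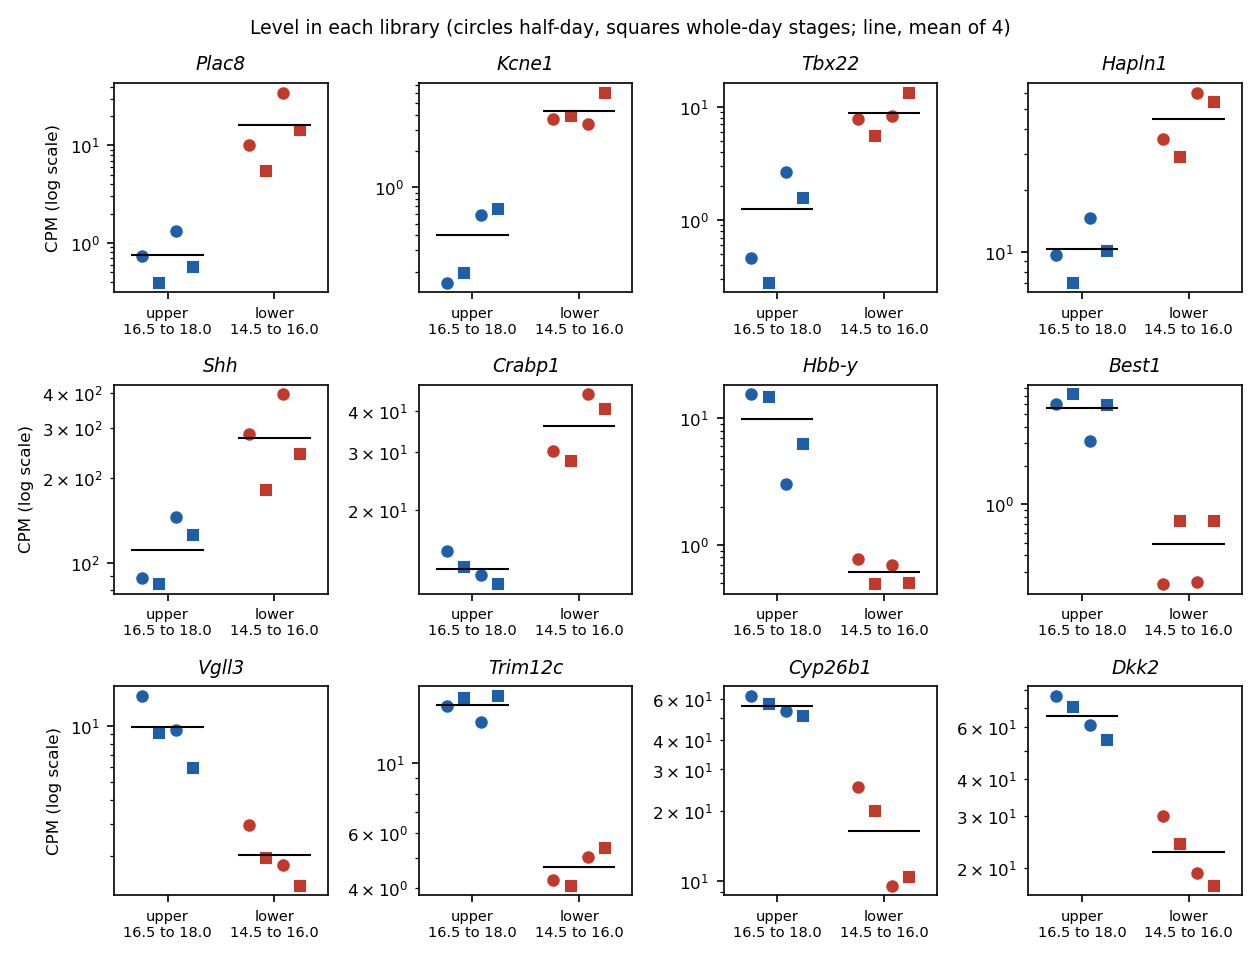
Level of 12 genes in each of the 8 libraries, in CPM on a log axis, with points in stage order from left to right within a side, circles for mid-day stages, squares for full-day stages and a line at the mean of 4. The sides do not overlap in any of the 12, and Hbb-y runs from 3.02 to 15.51 CPM in the upper libraries against at most 0.773 CPM in the lower ones. The 12 were picked from the named genes, and most were named for their separation, so the lack of overlap follows from the choice. Over all genes the sides did not overlap in 2925 (18.3%).

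The counts of the gene lists below stand beside the shares over all genes, 8.90% higher in the early lower and 8.49% in the late upper libraries. Of 18 enamel knot genes tested, 9 were higher in the early lower libraries, 3 were higher in the late upper ones and 6 did not pass, with a median log2 difference of 0.35. Shh, a signal sent by the knot epithelium (chromosome 5, 28456815 to 28467256), was at 285, 181, 396 and 242 CPM in the early lower and at 88.0, 84.1, 146 and 125 CPM in the late upper libraries. The lowest early lower library lay above the highest late upper one (1.28 ± 0.21, adjusted p = 0.00942). Msx2, a homeobox gene of the knot (chromosome 13, 53466884 to 53473074), was at 122, 98.5, 138 and 113 CPM against 48.6, 64.3, 71.1 and 58.7 CPM. The sides stood apart by 0.95 ± 0.12 (adjusted p = 0.00513). Wnt10a, a knot Wnt ligand, was higher in the early lower libraries (0.68 ± 0.13, adjusted p = 0.0130). Wnt3 was higher in the late upper libraries (-0.61 ± 0.12, adjusted p = 0.0146), a call that ended without the upper library of stage ED16.5 (adjusted p = 0.0508). The 9 became 5 without the lower library of stage ED16.0, and the 3 became 0 without the upper one of ED16.5.

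Of 21 genes tested of the Fgf pathway 11 were higher in the early lower and 1 in the late upper libraries (median 0.30). Fgf9, an epithelial ligand (chromosome 14, 58070547 to 58112720), was at 17.8, 20.9, 24.03 and 20.6 CPM against 9.01, 10.3, 13.9 and 13.6 CPM. The groups did not overlap (0.84 ± 0.15, adjusted p = 0.0122). Spry4, a feedback inhibitor of Fgf signalling (chromosome 18, 38586247 to 38601415), was at 62.2, 77.5, 74.8 and 71.6 CPM in the early lower and at 46.8, 48.7, 47.6 and 47.0 CPM in the late upper libraries. Its late upper levels were nearly equal, and the difference was 0.59 ± 0.06 (adjusted p = 0.00382). The inhibitor Spry2 (0.39 ± 0.05) and the receptor Fgfr1 (0.30 ± 0.06) were higher in the early lower libraries, and the 1 ligand on the other side was Fgf18 (-1.47 ± 0.26). The 11 became 4 to 7 without the upper library of stage ED16.5, ED17.0 or ED18.0 or the lower one of ED15.0, ED15.5 or ED16.0.

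In the Bmp pathway 6 of 23 genes were higher in the early lower and 3 in the late upper libraries (median 0.05). The ligand Bmp7 (chromosome 2, 172868012 to 172940321) was at 71.0, 65.1, 80.6 and 75.4 CPM in the early lower and at 48.0, 40.0, 50.9 and 44.5 CPM in the late upper libraries. These did not overlap (0.67 ± 0.07, adjusted p = 0.00382). The target genes Id1 (0.31 ± 0.04) and Id4 (0.71 ± 0.11) and the decoy receptor Bambi (0.68 ± 0.12) were higher on the same side. The mesenchymal ligand Bmp4 was at 86.2 ± 6.06 CPM in the early lower and 104 ± 2.94 in the late upper libraries, which is -0.27 ± 0.05 (adjusted p = 0.0155, or 0.0511 without the upper library of stage ED16.5). That side's 3 became 0 and 1 without the upper library of stage ED16.5 or ED17.0.

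The mesenchyme list leaned towards the late upper libraries, with 5 of 12 genes higher there and 2 in the early lower ones (median -0.24). Msx1, a homeobox gene needed for the bud to progress (chromosome 5, 37820485 to 37824583), was at 140.0, 171, 112 and 150.1 CPM in the late upper libraries and at 78.0, 106, 60.2 and 84.9 CPM in the early lower ones. The closest libraries were 112 and 106 CPM, and the difference was -0.81 ± 0.11 (adjusted p = 0.00538). Prrx1 (-0.65 ± 0.10) and Lhx8 (-0.59 ± 0.09), both mesenchymal homeobox genes, were also higher in the late upper libraries, while Dlx2 was higher in the early lower ones (0.35 ± 0.05, adjusted p = 0.00650). The 5 became 3 without the upper library of stage ED17.0 or the lower one of ED15.0 or ED15.5. Postn, periostin of the follicle (chromosome 3, 54361109 to 54391037), was at 1017, 1369, 858 and 1057 CPM against 558, 646, 379.6 and 571 CPM. The sides stood apart by -0.999 ± 0.13 (adjusted p = 0.00490), and in the whole follicle list 1 of 8 was higher in the early lower and 2 in the late upper libraries.

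In the dental epithelium list 2 genes of 12 were higher on each side, and 0 on either without the upper library of stage ED16.5 or the lower one of ED16.0. Krt15, a basal keratin (chromosome 11, 100131758 to 100135928), was at 359, 170.4, 378 and 276 CPM in the late upper and at 217, 134, 109 and 86.3 CPM in the early lower libraries. The groups overlapped at the upper stage ED17.0 and the lower stage ED14.5. Its difference of -1.10 ± 0.23 (adjusted p = 0.0182) ended without the upper library of stage ED16.5 or the lower one of ED16.0, up to an adjusted p of 0.0544.

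The jaw markers were split. Of 10 mandibular arch genes tested, 5 were higher in the early lower libraries, all of them Dlx genes or their antisense RNA, and 2 in the late upper ones (median 0.75). The 5 were called with any 1 library left out, and the 2 became 0 without the upper library of stage ED16.5 or the lower one of ED14.5, ED15.5 or ED16.0. Without the term for the alternating groups Dlx5, Dlx6 and Dlx6as1 lost their calls (adjusted p = 0.0739, 0.189 and 0.0755). Dlx5 (chromosome 6, 6877805 to 6882085) was at 149, 102, 169.6 and 139 CPM in the early lower and at 87.2, 47.7, 115 and 70.4 CPM in the late upper libraries. The upper library of stage ED17.5 exceeded the lower one of stage ED15.0, and the difference was 0.84 ± 0.16 (adjusted p = 0.0130). Dlx6as1 was at 145, 95.2, 154 and 130.1 CPM against 64.5, 19.8, 94.2 and 38.2 CPM (1.42 ± 0.27, adjusted p = 0.0133). The libraries do not mark strand, so reads of Dlx6as1 and of Dlx6 (0.84 ± 0.13) cannot be told apart with certainty.

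Of 12 maxillary and palate genes, 8 were higher in the late upper and 1 in the early lower libraries (median -0.60). Shox2, a homeobox gene of the palate (chromosome 3, 66971727 to 66981771), was at 28.3, 21.4, 20.5 and 18.7 CPM in the late upper and at 14.6, 11.7, 12.5 and 10.6 CPM in the early lower libraries. The sides did not overlap (-0.85 ± 0.11, adjusted p = 0.00490). Pou3f3, whose values by library are given above, passed the test within the alternating groups (-0.58 ± 0.12, adjusted p = 0.0183), a call that ended without the upper library of stage ED17.0 or the lower one of ED16.0, up to an adjusted p of 0.0607. Nkx2-3, a member of the mandibular list, was also called towards the late upper libraries (-0.43 ± 0.11, adjusted p = 0.0321). It did not pass with DESeq2 (adjusted p = 0.103) or without the alternating term (0.878), had the opposite sign in the full-day stages alone (0.34), and lost the call without the upper library of stage ED16.5 or the lower one of ED14.5, ED15.5 or ED16.0, up to an adjusted p of 0.199. The 8 became 1 to 5 without the upper library of stage ED16.5, ED17.0 or ED18.0 or the lower one of ED15.0, ED15.5 or ED16.0.

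Retinoic acid, a morphogen made by Aldh1a enzymes and cleared by Cyp26 enzymes, has its genes on both sides. Of 15 tested, 7 were higher in the early lower and 3 in the late upper libraries (median 0.03). Cyp26b1, a clearing enzyme (chromosome 6, 84571414 to 84593908), was at 62.2, 57.2, 53.6 and 50.9 CPM in the late upper and at 25.3, 19.9, 9.55 and 10.4 CPM in the early lower libraries. All 4 late upper libraries were over 50 CPM (-1.79 ± 0.28, adjusted p = 0.00767). The related enzyme Cyp26c1 was higher in the early lower libraries, at 193 ± 45.9 against 100.1 ± 26.0 CPM (0.94 ± 0.11, adjusted p = 0.00417). Crabp1, which binds retinoic acid in the cell (chromosome 9, 54764748 to 54773110), was at 30.2, 28.2, 44.98 and 40.6 CPM in the early lower and at 15, 13.4, 12.7 and 11.9 CPM in the late upper libraries. The sides stood apart (1.44 ± 0.15, adjusted p = 0.00382). Stra6, the receptor for retinol carried in the blood, was on the same side (1.37 ± 0.26, adjusted p = 0.0128). The 7 became 4, 3 and 3 without the upper library of stage ED16.5 or ED17.0 or the lower one of ED16.0.

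The Wnt pathway was divided, with 8 of 35 genes higher in the early lower and 9 in the late upper libraries (median -0.07). Dkk2, a secreted Wnt inhibitor (chromosome 3, 132085292 to 132180304), was at 76.9, 70.2, 61.2 and 54.1 CPM in the late upper and at 30.0, 24.2, 19.2 and 17.4 CPM in the early lower libraries. It did not overlap (-1.54 ± 0.16, adjusted p = 0.00382), and it fell by 0.44 on the log2 scale per day inside the sides (adjusted p = 0.0101). Rspo3 and Rspo4, secreted ligands that enhance Wnt signalling, lay on opposite sides. Rspo3 (chromosome 10, 29452416 to 29535867) was at 12.1, 14.4, 8.09 and 10.1 CPM in the late upper and at 4.83, 5.21, 2.61 and 3.23 CPM in the early lower libraries (-1.49 ± 0.24, adjusted p = 0.00837). Rspo4 was at 28.4 ± 8.57 CPM in the early lower and 10.8 ± 2.40 in the late upper libraries (1.39 ± 0.22, adjusted p = 0.00823). The 8 became 3, 4, 4 and 3 without the upper libraries of stages ED16.5 and ED17.0 and the lower ones of ED15.5 and ED16.0 in turn, and the 9 became 4, 5 and 5 without the upper ones of ED16.5 and ED17.0 and the lower one of ED16.0.

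In the Hedgehog pathway 3 of 13 genes were higher in the early lower libraries and 6 in the late upper ones (median -0.19). On the early lower side stood the ligand Shh and its receptor and target Ptch1, at 679 ± 71.0 against 543 ± 23.7 CPM (0.32 ± 0.07, adjusted p = 0.0216). The call for Ptch1 ended without the upper library of stage ED16.5 or ED17.0 or the lower one of ED15.5 or ED16.0, up to an adjusted p of 0.0695. On the late upper side stood the transcription factor Gli3 (-0.52 ± 0.06, adjusted p = 0.00390). The 6 became 1 and 2 without the upper library of stage ED16.5 or ED17.0, and the 3 became 1 without either of these or the lower one of ED15.5 or ED16.0.

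Eda, the ectodysplasin ligand, was higher in the late upper libraries (-0.35 ± 0.06, adjusted p = 0.0120), and its receptor Edar in the early lower ones (0.30 ± 0.06, adjusted p = 0.0188). Edar lost its call without the upper library of stage ED16.5 or ED17.0 or the lower one of ED16.0, up to an adjusted p of 0.0618. Without the term for the alternating groups both Eda and Edar lost their calls. Edar also lost its call with all 16 libraries fitted as 4 groups. In all, 2 of 9 Eda pathway genes were higher in the early lower and 3 in the late upper libraries, and without the upper library of stage ED16.5 these became 0 and 2. The 2 also became 0 without the upper one of ED17.0 or the lower one of ED16.0, and 1 without the lower one of ED15.0 or ED15.5, and the 3 became 5 without the upper one of ED18.0. Of 15 Notch pathway genes 5 and 1 were, and the receptors were split between the sides, with Notch2 higher in the early lower (0.28 ± 0.04, adjusted p = 0.00695) and Notch3 in the late upper libraries (-0.37 ± 0.05, adjusted p = 0.00627). The 5 became 3 and 2 without the upper library of stage ED16.5 or ED17.0. Of 15 activin and Tgfb genes 2 and 4 passed, with the coreceptor Tgfbr3 (-0.30 ± 0.05) and the latency protein Ltbp1 (-0.36 ± 0.06) on the late upper side. The 4 became 2 without the upper library of stage ED16.5 or ED17.0.

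**Figure D3:**
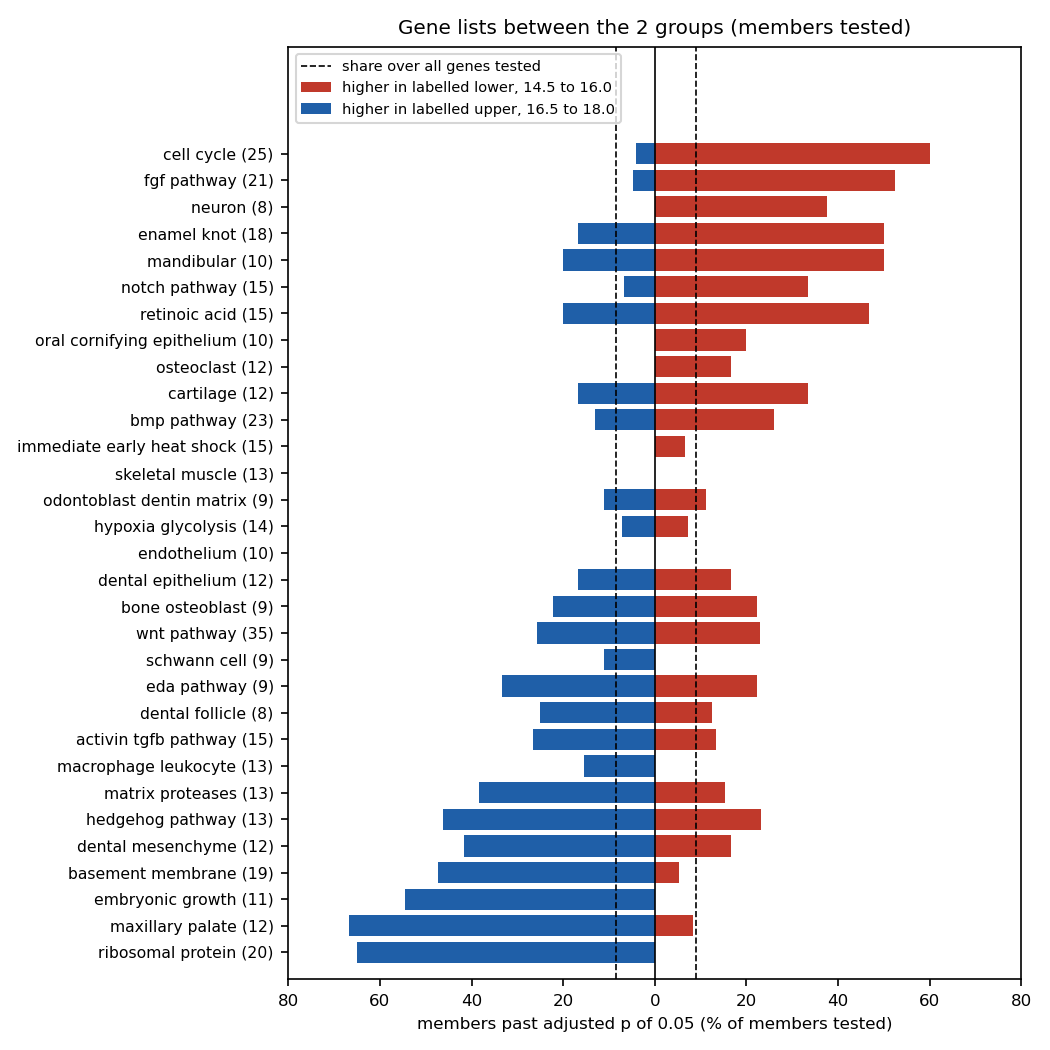
Share of each gene list past an adjusted p of 0.05, in percent of the members tested (in parentheses), to the right for members higher in the early lower and to the left for those higher in the late upper libraries. The dashed lines mark the shares over all genes, 8.90% and 8.49%. Cell cycle (15 of 25) and Fgf pathway genes (11 of 21) reach farthest to the right, and maxillary and palate (8 of 12) and ribosomal protein genes (13 of 20) farthest to the left.

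Of 25 cell cycle genes tested, 15 were higher in the early lower libraries and 1 in the late upper ones, with a median log2 difference of 0.30. That 1 was Ccnd2, a growth cyclin (-0.20 ± 0.06, adjusted p = 0.0428), whose call ended, up to an adjusted p of 0.123, without any 1 of the late upper libraries or the lower one of ED15.5 or ED16.0. Cdk1, the kinase that drives mitosis, was at 126, 125, 134 and 123 CPM in the early lower and at 114, 95.7, 114 and 89.1 CPM in the late upper libraries. The groups did not overlap (0.31 ± 0.05, adjusted p = 0.0102). Bub1, a checkpoint kinase of the spindle, was at 91.4, 86.6, 95.5 and 81.4 CPM against 78.5, 60.7, 82.6 and 61.5 CPM. The groups overlapped at the lower stage ED16.0 and the upper stage ED17.5, and within each alternating group they did not (0.33 ± 0.06, adjusted p = 0.00942).

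Ccnd1, the cyclin that answers growth signals (chromosome 7, 144929931 to 144939925), had the largest difference of the list. It was at 239.8, 276, 293 and 293 CPM in the early lower and at 162, 173, 182 and 208 CPM in the late upper libraries (0.60 ± 0.08, adjusted p = 0.00538). The mitotic kinase Plk1 (0.40 ± 0.07) and the ribonucleotide reductase subunit Rrm2 (0.40 ± 0.07) were called at an adjusted p of 0.0123 each. The 15 became 7 without the upper library of stage ED17.0, 9 without the lower one of ED16.0, and 2 without the term for the alternating groups.

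Promoters are shown for 5 of the cell cycle genes higher in the early lower libraries, because CCAAT boxes near the start are a known feature of genes of mitosis. The 120 bases before the start are given 5′ to 3′ on the gene's strand, from RefSeq on GRCm38.p6, with CCAAT in capitals on either strand (ATTGG where it lies on the other). Ccnb2, a mitotic cyclin, was chosen after its values were seen (0.35 ± 0.08, adjusted p = 0.0211, up to 0.0561 without the upper library of stage ED16.5 or the lower one of ED15.5 or ED16.0). They are Cdk1 (chr10:69352913-69353032, minus strand), Bub1 (chr2:127831860-127831979, minus), Plk1 (chr7:122159315-122159434, plus), Rrm2 (chr12:24708134-24708253, plus) and Ccnb2 (chr9:70421555-70421674, minus).
Cdk1: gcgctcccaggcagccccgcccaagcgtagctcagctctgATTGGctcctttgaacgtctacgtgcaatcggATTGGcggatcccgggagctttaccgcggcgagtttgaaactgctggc
Bub1: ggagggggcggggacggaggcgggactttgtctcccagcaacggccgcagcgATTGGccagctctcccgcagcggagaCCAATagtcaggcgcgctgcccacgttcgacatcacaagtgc
Plk1: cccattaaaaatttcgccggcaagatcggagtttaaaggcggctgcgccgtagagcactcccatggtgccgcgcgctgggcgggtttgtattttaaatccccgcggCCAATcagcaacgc
Rrm2: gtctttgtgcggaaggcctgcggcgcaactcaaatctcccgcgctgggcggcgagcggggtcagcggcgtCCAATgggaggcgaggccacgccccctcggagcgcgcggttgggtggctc
Ccnb2: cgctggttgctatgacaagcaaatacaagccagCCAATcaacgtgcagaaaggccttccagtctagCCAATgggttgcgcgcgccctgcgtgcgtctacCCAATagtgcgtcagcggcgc
In the 250 bases before the start, CCAAT on either strand was found in 16 of the 19 cell cycle genes with a promoter in the table (84.2%). Of the 15 higher in the early lower libraries 11 had a promoter there, and 10 of these had CCAAT (90.9%). That is near the share of the whole list, so CCAAT does not set the genes called here apart from the list. Over all promoters it was found in 10133 of 27025 genes (37.5%). Cdk1 had it 208, 80 and 48 bases before the start and Ccnb2 87, 54 and 21 bases before it. The match is of letters only, and no binding was measured here.

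Over the 4 groups of the series, which add the upper libraries of stages ED14.5 to ED16.0 and the lower ones of ED16.5 to ED18.0, the late upper libraries had the lowest mean level in 19 of the 25 cell cycle genes. How often that group is lowest over all genes was not counted. The count also rests in part on the 15 genes already called higher in the early lower than in the late upper libraries. Cdk1 averaged 124.9 CPM in the upper libraries of ED14.5 to ED16.0, 103.1 in the late upper, 127.1 in the early lower and 119.6 in the lower ones of ED16.5 to ED18.0. The difference between the sides was larger than the mean of the steps before and after it for 9 of the 25 genes and smaller for 0 (2.76% and 2.61% of all genes, test of the difference with edgeR). With 1 value per labelled embryo (limma) these were 4 and 0, since per the labels each embryo gave 2 of these 16 libraries. For Cdk1 that test gave 0.48 ± 0.10 (adjusted p = 0.0230, or 0.0294 per embryo) and for Bub1 0.49 ± 0.11 (adjusted p = 0.0262, or 0.0397 per embryo).

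**Figure D4:**
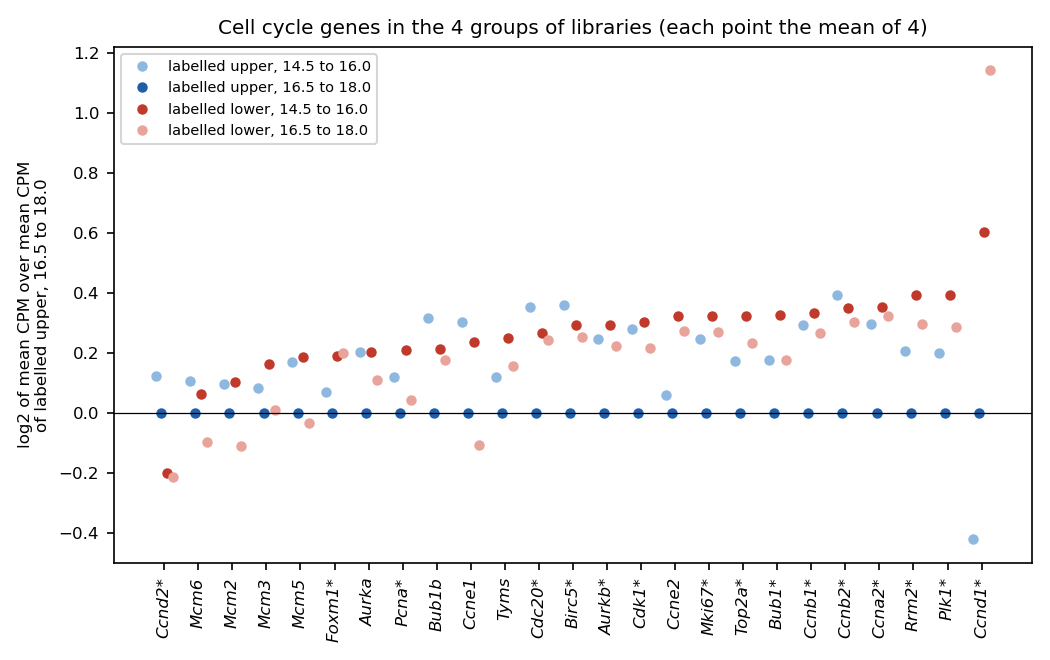
Mean level of the 25 cell cycle genes in the 4 groups of 4 libraries, as log2 of mean CPM over the mean of the late upper libraries (the line at 0), ordered by the difference between the early lower and late upper libraries, with an asterisk where that difference passed the test. In 19 genes the late upper libraries are the lowest group, and Ccnd1 alone is lowest in the upper libraries of stages ED14.5 to ED16.0. The share of all genes lowest in the late upper libraries was not counted.

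Of 19 basement membrane genes 9 were higher in the late upper libraries, 1 in the early lower ones and 9 did not pass (median -0.19). Lama3, a laminin chain of epithelial anchoring (chromosome 18, 12333819 to 12583013), was at 68.5, 69.3, 57.5 and 66.5 CPM in the late upper and at 43.6, 38.9, 35.5 and 38.3 CPM in the early lower libraries. The sides did not overlap (-0.75 ± 0.08, adjusted p = 0.00382). The collagens Col4a6 (-0.80 ± 0.14), Col4a5 (-0.61 ± 0.09) and Col17a1 (-0.50 ± 0.07) were also higher in the late upper libraries. The 9 became 5 without the upper library of stage ED16.5 or ED17.0. Of 13 matrix proteases and inhibitors 2 were higher in the early lower and 5 in the late upper libraries. Mmp13, a collagenase, stood out on the early lower side at 51.3 ± 14.01 against 13.0 ± 4.94 CPM (2.02 ± 0.28, adjusted p = 0.00556). The 5 became 2 or 3 without the upper library of stage ED16.5, ED17.0 or ED18.0 or the lower one of ED15.0, ED15.5 or ED16.0.

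Genes known for embryonic growth were higher in the late upper libraries in 6 of 11 and in the early lower ones in 0, with a median of -0.34. The late upper side has the later stage labels, but labelled stage, tooth and flow cell cannot be told apart here. Hmga2, a chromatin protein that declines over development (chromosome 10, 120361275 to 120476469), was at 237, 276, 199 and 234 CPM in the late upper and at 179.5, 219, 169.9 and 179.6 CPM in the early lower libraries. The ranges overlapped. Its difference of -0.34 ± 0.08 (adjusted p = 0.0258) ended without the upper library of stage ED16.5 or ED17.0 or the lower one of ED15.5 or ED16.0, up to an adjusted p of 0.0824. Mest, an imprinted gene of embryonic mesoderm, was at 914 ± 111 in the early lower and 1237 ± 192 CPM in the late upper libraries (-0.43 ± 0.08, adjusted p = 0.0116). Without the upper library of stage ED16.5 or ED17.0 or the lower one of ED15.5 or ED16.0 the 6 became 1.

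Ribosomal protein genes were shifted by a small amount in 1 direction. Of 20 tested, 13 were higher in the late upper and 0 in the early lower libraries (median -0.18). Their summed level was 18145 to 18981 CPM in the early lower and 19418 to 21349 CPM in the late upper libraries, with no overlap. The same 0 and 13 were called with size factors or library totals in place of TMM, and the 13 became 0, 0, 2 and 1 without the upper libraries of stages ED16.5 and ED17.0 and the lower ones of ED15.5 and ED16.0 in turn.

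Few markers of other cell types that a dissected germ can hold passed the test. Of 10 endothelial genes 0 passed with edgeR or DESeq2 (1 at an unadjusted p under 0.05), and of 9 Schwann cell genes 1 did, Erbb3 (-0.22 ± 0.06, adjusted p = 0.0431, lost, up to 0.126, without any 1 library but the upper one of ED18.0). Of 13 skeletal muscle genes 0 passed with edgeR (6 at an unadjusted p under 0.05, 5 of them higher in the late upper libraries) and 3 with DESeq2, all higher in the late upper libraries. Without the lower library of stage ED14.5, 5 muscle genes passed with edgeR on that side. The summed muscle list was at 10.9 to 21.8 CPM in the early lower and 17.2 to 72.0 CPM in the late upper libraries, where Myh3, embryonic myosin, was at 3.38, 4.38, 4.25 and 18.7 CPM, highest in 1 library. Of 13 macrophage and leukocyte genes 2 were higher in the late upper libraries, led by the macrophage receptor Mrc1 (10.7 ± 1.41 against 18.01 ± 2.76 CPM, -0.75 ± 0.13, adjusted p = 0.0109), and the 2 became 1 without 6 of the 8 libraries, all but the upper one of ED17.5 and the lower one of ED14.5, while the summed list overlapped (88.9 to 147.6 and 103.8 to 132.4 CPM). Of 8 neuronal genes 3 were higher in the early lower libraries (1 without the upper library of stage ED16.5 or ED17.0 or the lower one of ED15.5 or ED16.0), led by the tubulin Tubb3 (59.9 ± 9.57 against 39.1 ± 5.26 CPM, 0.62 ± 0.10, adjusted p = 0.00974), and the summed list did not overlap (67.1 to 91.5 and 48.1 to 58.0 CPM). The part of these cells in the other results was not tested.

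Osteoclast genes, of the cells that resorb bone around the germ, were uneven between libraries. Ctsk, the osteoclast protease (chromosome 3, 95499256 to 95509362), was at 50.8, 22.4, 257 and 133 CPM in the early lower and at 15.2, 19.2, 19.6 and 22.9 CPM in the late upper libraries. The lower library of stage ED15.0 lay inside the late upper range. Its difference of 2.52 ± 0.66 (adjusted p = 0.0331) ended without any 1 of the late upper libraries or the lower one of ED15.5 or ED16.0, up to an adjusted p of 0.132. Of 12 osteoclast genes 2 were higher in the early lower libraries and 0 in the late upper ones, at a median of 0.90 on the log2 scale and a summed level of 368 to 1036 against 318 to 437 CPM. At an unadjusted p under 0.05 (edgeR) these were 9 and 0. The 2 that passed at an adjusted p under 0.05 ran from 0 to 7 with 1 library left out.

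The cartilage list had 4 of 12 genes higher in the early lower and 2 in the late upper libraries, Hapln1 and Sox9 (0.47 ± 0.07) on the former side and Col2a1 (-0.75 ± 0.14) on the latter. The 4 became 2 without the upper library of stage ED17.0 or the lower one of ED16.0. Among 10 genes of cornifying oral epithelium 2 were higher in the early lower libraries. Sprr3, a cornified envelope protein (chromosome 3, 92456502 to 92458720), was at 4.27, 7.09, 4.46 and 5.54 CPM against 1.92, 0.309, 0.528 and 1.23 CPM. It did not overlap (2.40 ± 0.46, adjusted p = 0.0138), while the summed list did (267.4 to 607.5 and 360.5 to 679.7 CPM). Krt4, an oral keratin, was at 23.8, 51.1, 26.1 and 28.0 CPM in the early lower and at 4.41, 6.06, 4.66 and 43.6 CPM in the late upper libraries and did not pass the test (adjusted p = 0.112).

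A few genes of hard tissue passed the test on each side. Of 10 enamel and ameloblast genes 5 could be tested. The transcription factors Sp6 (521 ± 116 against 236 ± 52.2 CPM, 1.15 ± 0.13, adjusted p = 0.00382) and Dlx3 (0.67 ± 0.09, adjusted p = 0.00490) were higher in the early lower libraries, and the enamel protein Ambn, at 17.2 ± 2.29 and 25.6 ± 3.03 CPM, in the late upper ones (-0.58 ± 0.12, adjusted p = 0.0160). Ambn lost its call without the upper library of stage ED16.5 or ED17.0, up to an adjusted p of 0.0543. Among 9 odontoblast genes 1 was higher on each side, near the shares over all genes (8.90% and 8.49%). Among 9 bone genes 2 were higher on each side, with Runx2, the osteoblast transcription factor, higher in the late upper libraries (-0.52 ± 0.09, adjusted p = 0.0116).

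The same tooth labels can be set against each other at the other end of the stages, in the 8 libraries not used so far. In that comparison, of the lower libraries of stages ED16.5 to ED18.0 minus the upper ones of ED14.5 to ED16.0, 5849 of 15945 genes (36.7%) were called. No library is shared with the early lower and late upper sets, although per the labels the embryos are the same 8. The flow cell follows the tooth label there as it does between the early lower and late upper libraries. The lane differs as well (3 for the lower and 1 for the upper libraries). Genes shared by the comparisons can thus follow the tooth label or the flow cell, which cannot be told apart. Of the 1419 genes higher in the early lower libraries, 812 (57.2%) were also higher in the lower libraries there, 39 were higher in the upper ones and 568 did not pass. Of the 1353 higher in the late upper libraries, 775 (57.3%) were also higher in the upper ones there, 31 were higher in the lower ones and 547 did not pass. These shared genes were 26.8% of the 3034 and 27.5% of the 2815 called there.

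The difference between the sides was itself set against that outer comparison, with all 16 libraries in 1 model. It was more positive for 1325 genes (8.31%) and more negative for 1724 (10.8%). Per the labels each embryo gave a library to both comparisons, so this contrast is also embryos 1 to 4 minus embryos 5 to 8, and a model of 16 separate libraries gives p-values that are too small. With 1 value per embryo (4 against 4, limma on log2 CPM, chosen after seeing the data) 844 and 1426 genes passed, and with counts summed per embryo (edgeR) 856 and 1252. Adjusted p-values per embryo are given beside those of the 16 libraries. The embryos are those of the labels, which some levels given above did not follow. Where the labelled embryos are not separate animals, the p-values per embryo do not hold either. Trim12c averaged 12.9 ± 0.588 CPM in the upper libraries of stages ED14.5 to ED16.0, 15.3 ± 1.32 in the late upper, 4.68 ± 0.619 in the early lower and 19.6 ± 5.10 in the lower ones of ED16.5 to ED18.0. The early lower libraries stood below all 3 other groups, and the outer difference of 0.60 ± 0.16 was opposite in sign (test of the difference, -2.32 ± 0.20, adjusted p = 4.93e-05, or 0.00167 per embryo with limma). In Trim68 too the early lower group was the lowest and the lower one of ED16.5 to ED18.0 the highest, with 16.2 ± 0.728, 15.8 ± 0.258, 8.64 ± 0.712 and 21.4 ± 2.95 CPM (-1.29 ± 0.12, adjusted p = 8.38e-05, or 0.00232 per embryo). The same groups were lowest and highest in Best1, with 4.66 ± 2.06, 5.57 ± 1.74, 0.494 ± 0.288 and 7.02 ± 2.44 CPM (-4.09 ± 0.53, adjusted p = 0.000423, or 0.00167 per embryo).

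Other genes had other orders over the 4 groups. Sall3, a zinc finger transcription factor, averaged 1.54 ± 0.385, 17.4 ± 6.69, 60.4 ± 13.4 and 103 ± 23.0 CPM, so that its difference between the sides (1.80 ± 0.27) was smaller than the outer one (6.07 ± 0.22). Bmp3, a Bmp antagonist, averaged 26.8 ± 5.91, 45.6 ± 4.81, 41.8 ± 6.57 and 52.0 ± 5.401 CPM, and its difference between the sides did not pass (-0.13 ± 0.06, adjusted p = 0.132). Nptx2, a secreted pentraxin, was high in 1 group alone, with 11.4 ± 3.84, 2.21 ± 0.620, 2.43 ± 0.986 and 1.75 ± 1.02 CPM. Bcl2l12 alternated, at 29.8 ± 0.516, 23.3 ± 1.27, 29.8 ± 1.41 and 23.1 ± 1.16 CPM, higher in both groups of stages ED14.5 to ED16.0, and Trmt6, a tRNA methyltransferase subunit, averaged 47.1 ± 2.30, 40.0 ± 3.33, 49.3 ± 2.81 and 33.9 ± 2.98 CPM.

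The steps before and after share libraries with the early lower and late upper sets, so only the test of the difference from their mean is given. It was positive for 440 genes (2.76%) and negative for 416 (2.61%), or 12 and 33 without the term for the alternating groups. With 1 value per labelled embryo (limma) it was positive for 154 and negative for 217. Towards positive, the smallest p-values were in Bcl2l12 (0.71 ± 0.08), Thap6 (1.07 ± 0.13), Trmt6 (0.68 ± 0.09) and Tipin, a replication fork protein (0.54 ± 0.09). Towards negative they were in Trim12c (-2.87 ± 0.23), Trim68 (-1.52 ± 0.14), Best1 (-5.55 ± 0.63) and Dpy19l3 (-0.60 ± 0.08).

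Within the sides, 388 genes (2.43%) changed with the labelled stage, 202 upward (1.27%) and 186 downward (1.17%). The slope is shared by both sides and fitted with the term for the alternating groups, so neither side was tested alone. Slc7a11 had a slope of 2.76 ± 0.09 on the log2 scale per day (adjusted p = 7.25e-06), Tlr1 2.82 ± 0.14, Ccl28 2.81 ± 0.20 and C1rb -3.12 ± 0.25. The levels of Slc7a11 given above lie in steps between pairs of stages, and a linear slope describes them only in part. Among signalling genes the shared slope was positive for Shh (0.55 ± 0.11, adjusted p = 0.0404) and Edaradd (0.31 ± 0.04, adjusted p = 0.00683). It was negative for Msx1 (-0.30 ± 0.04, adjusted p = 0.0160), Postn (-0.33 ± 0.06, adjusted p = 0.0269) and Igf2bp1 (-0.46 ± 0.06, adjusted p = 0.0117). Between the sides these genes went against the order of the labelled stages. Shh and Edaradd rose with stage but were lower on the side labelled later. Msx1, Postn and Igf2bp1 fell with stage but were higher on that side. The reason was not tested. The levels of Shh and Msx1 given above alternate between stages, and their trends are seen within the alternating groups.

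The size of the difference between the sides was also compared between the alternating groups. It differed in 0 genes with edgeR (893, or 5.60%, at an unadjusted p under 0.05) and in 20 and 6 genes with DESeq2, with 2 libraries in each of the 4 cells of that test.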

How the data were processed

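The authors deposited a table of read counts per gene, in whole numbers, with 23337 genes and 5 summary lines; the latter stayed out (reads on no feature were 13.7% to 14.7% of each total in the 8 libraries). The submitters' processing notes name Bowtie2 2.0.2, TopHat2 2.0.6, HTSeq 0.5.3p9 and mm10. Libraries were TruSeq V2 poly(A), a kit without strand marks, per the labels. No source used here gives the annotation or the strand setting.

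A gene was kept if 2 of the 8 libraries reached 0.269 CPM, 10 counts at the median depth. The quasi-likelihood F test of edgeR 4.0.16 (R 4.3.3, TMM) included a term for the alternating stages, and p was adjusted by Benjamini-Hochberg over all 15945 genes with a threshold of 0.05. Each standard error is the log2 value over the square root of F. CPM were scaled over all 16 libraries. Contrasts over 16 libraries were also fitted on 1 value per labelled embryo with limma 3.58.1 (log2 CPM, prior count of 2). DESeq2 1.42.0, other scalings, filters and sample sets were alternatives, and the tests were tested on simulated counts. Among 28 pairs of the 8 libraries 0 were identical. The p-values measure the spread between these libraries.

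The members, the 35 gene lists and the tests were chosen with earlier results of these data known. Named genes have a mean count of at least 50. They are the 12 largest differences and the 8 smallest p-values in each direction among genes whose libraries separate within both alternating groups, the 4 smallest p-values in each direction of the other tests, and up to 6 members of a list. Unnamed gene models and small RNAs are skipped. Some genes that met the rule are not reported here. Positions are from GENCODE M21 (GRCm38), with 199 of 201 named genes matched, and promoters from RefSeq (GRCm38.p6).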

Additional observations from a re-analysis of the deposited data

Results flagged for a closer look

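In 90 groups of 4 libraries, of 45 genes, 4 had 1 library far from the other 3, where chance marks about 1 in 20. Krt4, an oral keratin, was at 51.1 CPM in the lower library of stage ED15.0 against 23.8 to 28.0 CPM in the other early lower ones, and at 43.6 CPM in the upper library of stage ED18.0 against 4.41 to 6.06 CPM in the other late upper ones. Myh3, embryonic muscle myosin, was at 18.7 CPM in that same upper library against 3.38 to 4.38 CPM. Hbb-b1 was at 1.03 CPM in the upper library of stage ED16.5 against 0.601 to 0.645 CPM.

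The difference between the early lower and late upper libraries was tested against the outer comparison, the lower libraries of stages ED16.5 to ED18.0 minus the upper ones of ED14.5 to ED16.0. It was more positive for 1325 genes and more negative for 1724 of 15945. Per the labels each embryo gave 1 library to each comparison, so the contrast is also embryos 1 to 4 minus embryos 5 to 8. With 1 value per labelled embryo (limma) 844 and 1426 genes passed. Whether the labelled embryos are separate animals was not tested. The smallest p-values towards positive were in Bcl2l12 (log2 0.71), Trmt6 (0.76), Pcdh20 (1.13) and Nptx2 (2.92). Towards negative they were in Bmp3 (-1.11), Trim12c (-2.32), Sall3 (-4.28) and Trim68 (-1.29), with adjusted p-values (edgeR) from 4.67e-05 to 0.000216 over the 8, or from 0.00167 to 0.00441 per embryo. Among these 8, the difference between the sides had the opposite sign to the outer one in 6, namely Bcl2l12, Trmt6, Nptx2, Bmp3, Trim12c and Trim68. It had the same sign and a smaller size in Pcdh20, a protocadherin (-0.20 against -1.34), and in Sall3 (1.80 against 6.07). For Pcdh20, Nptx2 and Bmp3 the difference between the sides did not pass the test itself (adjusted p = 0.162, 0.726 and 0.132, edgeR).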

How the results depend on the processing

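No paired analysis was possible because per the labels the early lower and late upper libraries share no individual. A block for the individual over all 16 libraries absorbs the contrast with the outer comparison, so that alternative was not run. Counts below are genes higher in the early lower and in the late upper libraries. With DESeq2 (1762 and 1731), size factors, library totals, no filter, a stricter filter, a stage term, all 16 libraries or without the lower libraries of stages ED14.5 and ED15.0 (1088 and 1090), they stayed within 1.5 times the reported 1419 and 1353. They were 654 and 621 without the alternating term, 1 and 0 in the mid-day stages alone, 192 and 182 in the full-day stages alone, 0 and 0 with neighbouring stages summed (edgeR, an alternative chosen after seeing the data, with 3502 genes at an unadjusted p under 0.05) and 737 and 680 with DESeq2 on those sums. Leaving out 1 library gave 500 to 1365 and 429 to 1348, and 2505 to 2910 and 1887 to 2531 for the outer comparison. The fits of mid-day or full-day stages alone and of summed stages have 2 samples a side. The contrast with the outer comparison gave 705 and 1096 without the alternating term. With 1 value per labelled embryo, added after seeing the data, it gave 844 and 1426 (limma) or 856 and 1252 (edgeR sums), against 1325 and 1724 from 16 libraries. That with the neighbouring steps gave 912 and 836 with DESeq2, 12 and 33 without the term, and 154 and 217 per embryo (limma), against 440 and 416. With DESeq2 the slope gave 359 and 336, and the test between alternating groups 20 and 6. One named gene reversed, Nkx2-3 at 0.34 in the full-day stages alone, where all 4 libraries hold 2 to 5 counts. Without the alternating term 61 of the 171 genes that the naming rule gave and that had a call lost it, and with any 1 library left out 12 to 54 did. At 0.269 CPM a gene rests on 10 counts, so low genes carry large counting error.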

Other observations

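Other gene lists differed little between the sides. Of 14 hypoxia and glycolysis genes, 1 was higher on each side, the hexokinase Hk2 in the early lower (133 ± 24.1 against 92.7 ± 16.7 CPM, log2 0.53 ± 0.11, adjusted p = 0.0157) and the kinase Pdk1, which holds back pyruvate oxidation, in the late upper libraries (73.1 ± 7.08 against 103 ± 23.0 CPM, -0.49 ± 0.13, adjusted p = 0.0348). Of 15 immediate early and heat shock genes, which respond to handling, Fos alone passed the test, at 8.402 ± 0.455 in the early lower and 5.87 ± 1.26 CPM in the late upper libraries (0.52 ± 0.14, adjusted p = 0.0346). Hk2 lost its call without the upper library of stage ED17.0 (adjusted p = 0.0511), Pdk1 without 6 of the 8 libraries (up to 0.104) and Fos without 7 (up to 0.0899). Of 8 salivary gland genes 3 could be tested and 1, Etv5, which is also an Fgf target, was higher in the early lower libraries (0.28 ± 0.07, adjusted p = 0.0279, up to 0.0878 without 1 of 6 libraries).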
